A study of Mus musculus with 2 samples.

Results

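The nuclear-encoded genes of the mitochondrial respiratory chain were described in nuclei sorted as tumour-associated macrophages (TAMs) from mouse mammary tumours. Members were taken by symbol: every gene of the deposited table starting with Ndufa, Ndufb, Ndufc, Ndufs, Ndufv, Uqcr, Cox4i, Cox5, Cox6, Cox7, Cox8 or Atp5, together with Sdha, Sdhb, Sdhc and Sdhd. This gave 94 of 32285 genes. Of these, 84 encode subunits: 36 of complex I (NADH dehydrogenase), 4 of complex II (succinate dehydrogenase), 8 of complex III (the cytochrome bc1 complex), 19 of complex IV (cytochrome c oxidase) and 17 of complex V (ATP synthase). The prefixes also took in 8 genes of complex I assembly factors (Ndufaf1 to Ndufaf8), Ndufb1-ps, which carries the name of a pseudogene, and Cox7a2l, which joins complexes into supercomplexes. Ndufa4 and Ndufa4l2 were counted with complex IV, where the Ndufa4 protein is now placed.

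Complexes I to IV pass electrons from NADH and succinate to oxygen and, except for complex II, pump protons across the inner mitochondrial membrane, and complex V uses the gradient to make ATP. Complexes I, III, IV and V are built from proteins of both genomes: their nuclear-encoded subunits are translated in the cytosol and imported, while a small set is encoded by mitochondrial DNA and never passes through the nucleus. Complex II is wholly nuclear-encoded. Inflammatory activation of macrophages is known to shift them away from oxidative phosphorylation, and tissue-resident and alternatively activated macrophages are known for relying on it. The 13 protein-coding genes of the mitochondrial genome, whose symbols start with mt-, served as the comparison.

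The series holds 2 samples on a low protein diet, 1 labelled control-PyMT and 1 labelled MYC-PyMT, the latter with S100a8-cre and a Rosa26-LSL-MYC allele, both on a strain backcrossed to B6 and both carrying PyMT, the polyoma middle T oncogene that drives the tumours. Recipients of both genotypes were irradiated at 7 weeks of age and received total bone marrow of donors with Fcgr1-cre and a Rosa26LSL-H2B-mCherry allele, so that the MYC allele belonged to the recipient and the mCherry label to the donor's cells. The diet was given for 6 weeks, starting 2 weeks after transplantation. Sorted cells were CD45, F4/80 and Vcam positive and negative for SiglecF, Ly6G, B220 and Ly6C, and a second sort kept nuclei with mCherry and SYTO9 signal and without CD11b. How many mice went into a sample is not given in the sources used here.

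The table pools both samples as counts of unique molecular identifiers (UMIs, each standing for 1 captured RNA molecule), with 1838 barcodes and 7381447 UMIs. Barcodes carry a suffix of 1 (1383 barcodes, median 2487 UMIs) or 2 (455 barcodes, median 2834 UMIs) that no label ties to a genotype, so no genotype comparison and no test over samples was possible, and 9 barcode sequences occurred with both suffixes. Levels are given in counts per 1000000 UMIs (CPM) with exact 95% Poisson intervals, and ratios of levels with exact conditional binomial ones. Neither interval covers spread between mice, libraries or sorts. Of the barcodes, 346 held under 1000 UMIs (289 with suffix 1 and 57 with suffix 2), and 1485 of the remaining 1492 were kept as nuclei.

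The nuclei were clustered without the members, the mt- genes and the ribosomal protein genes. Clusters 1, 3, 5 and 8 (801 nuclei) were macrophage-like by their markers and clusters 4 and 6 (299 nuclei) epithelial-like, although the sort was for macrophages. The 10 epithelial markers summed to 3735 CPM in the epithelial-like and 213 CPM in the macrophage-like nuclei, and the 11 macrophage markers to 515 CPM and 4746 CPM. Cluster 3 was led by inflammatory genes (Il1b and Nlrp3 among them), cluster 5 by interferon-induced genes such as Ifit2, and cluster 8 by genes of resident macrophages such as Lyve1 and Cd163. Cluster 2 (324 nuclei) counted 5 macrophage markers. Its leading genes held markers of other types, Ccr2 (monocyte) and Bank1 (B cell), so it stayed unnamed. Macrophage markers summed to 4412 CPM in cluster 2, monocyte markers to 618 CPM and B cell markers to 60.2 CPM. Cluster 7 (50 nuclei, led by Gpnmb) counted 2 macrophage markers, where 3 were needed, and also stayed unnamed. Cluster 4 had Ebf1, best known from B cells, among its leading genes, while the 6 B cell markers summed to 1.33 CPM there. Suffixes were unevenly spread: all 33 nuclei of cluster 8 and 275 of cluster 2 carried suffix 2, against 7 of the 429 in cluster 1 and 3 of the 284 in cluster 3.

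The upstream sequences of 4 members are shown because these genes mark the ends of the pattern described next: Atp5e, the epsilon subunit in the central stalk of ATP synthase, and Atp5k, a small subunit of its membrane part, had 2 of the 3 highest relative levels in barcodes under 1000 UMIs, while Sdhb, the iron-sulfur subunit of complex II, and Ndufs4, an accessory subunit of complex I, had the lowest. Each window runs from 250 bases before to 50 after the RefSeq start on build GRCm38.p6, written 5' to 3' along the gene, with motif matches in capitals. Atp5e lies at chr2:174464052-174464351 (minus strand), Atp5k at chr5:108434350-108434649 (minus strand), Sdhb at chr4:140961021-140961320 (plus strand) and Ndufs4 at chr13:114388045-114388344 (minus strand).
Atp5e: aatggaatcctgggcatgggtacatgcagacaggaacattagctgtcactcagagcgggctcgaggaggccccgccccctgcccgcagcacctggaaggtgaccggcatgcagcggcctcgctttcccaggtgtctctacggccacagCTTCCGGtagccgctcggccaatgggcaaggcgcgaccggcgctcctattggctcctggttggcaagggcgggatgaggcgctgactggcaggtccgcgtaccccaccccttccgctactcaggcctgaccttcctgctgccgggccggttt
Atp5k: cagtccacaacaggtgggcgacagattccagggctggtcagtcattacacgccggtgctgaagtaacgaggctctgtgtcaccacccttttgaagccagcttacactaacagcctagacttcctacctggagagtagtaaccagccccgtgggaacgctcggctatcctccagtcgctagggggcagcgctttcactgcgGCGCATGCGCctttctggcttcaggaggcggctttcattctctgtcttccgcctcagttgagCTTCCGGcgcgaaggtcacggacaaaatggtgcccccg
Sdhb: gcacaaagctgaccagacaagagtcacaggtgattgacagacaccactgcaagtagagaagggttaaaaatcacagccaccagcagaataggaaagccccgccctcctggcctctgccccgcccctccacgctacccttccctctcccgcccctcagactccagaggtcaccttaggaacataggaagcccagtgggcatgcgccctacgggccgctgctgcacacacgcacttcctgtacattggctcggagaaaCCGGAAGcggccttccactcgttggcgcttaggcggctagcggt
Ndufs4: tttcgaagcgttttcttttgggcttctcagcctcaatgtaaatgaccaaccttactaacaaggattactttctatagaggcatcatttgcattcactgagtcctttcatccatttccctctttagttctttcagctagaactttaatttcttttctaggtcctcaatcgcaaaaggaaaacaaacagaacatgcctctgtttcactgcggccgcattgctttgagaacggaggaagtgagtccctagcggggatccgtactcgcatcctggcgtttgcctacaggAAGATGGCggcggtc
The capitals mark CCGGAAG, a core bound by ETS factors, on the minus strand of Atp5e and Atp5k and the plus strand of Sdhb, the motif of nuclear respiratory factor NRF1 (GCGCA, any base, then GCGC) in Atp5k, and AAGATGGC, a YY1 motif, in Ndufs4. Of the members, 77 had a window in RefSeq's table, 82 windows in all. The NRF1 match of Atp5k reads as the motif on both strands, and no match overlapped another motif in these 4 windows. Searched on both strands, the NRF1 motif was in 24.4% of the members' windows against 4.60% of all 32851 windows, CCGGAAG in 23.2% against 8.86% and AAGATGGC in 13.4% against 2.75%. CAAGGTCA, bound by the estrogen-related receptors, was in 4.88% against 1.56% and the cyclic AMP response element TGACGTCA in 4.88% against 1.79%. The members' windows held a median of 20 CG dinucleotides and all windows 7, and the part of base composition in the motif shares was not tested. Of the 5 members with the highest ratios, Atp5e, Atp5k and Uqcr11 held an ETS match and Cox5b and Uqcr10 held no match to any of these motifs. Of the 5 lowest, Sdhb held an ETS match, Ndufs4 and Ndufa9 a YY1 match and Ndufv2 no match, and Ndufaf6 was not in the table.

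The members together took 7224 CPM (6885 to 7576) in barcodes under 1000 UMIs and 3126 CPM (3085 to 3167) in nuclei of 1000 UMIs or more, a ratio of 2.31 (2.20 to 2.43). Macrophage-like nuclei stood at 2347 CPM (2289 to 2406) and epithelial-like nuclei at 3958 CPM (3889 to 4027), a ratio of 1.69 (1.64 to 1.74). In epithelial-like nuclei, 45 nuclei over 20000 UMIs held 7603 of the 12667 member UMIs, so sums of this class rest largely on them. Without these 45 the ratio was 1.69 (1.63 to 1.76). Low barcodes thus lay above every cluster of nuclei, and every epithelial-like cluster above every macrophage-like one. Within macrophage-like nuclei, cluster 8 was highest at 3204 CPM (2936 to 3490) and cluster 3 lowest at 1835 CPM (1744 to 1930). Clusters 2 (2671 CPM), 1 (2560 CPM) and 7 (2478 CPM) followed, with intervals that overlapped each other but not that of cluster 8, and cluster 5 (2210 CPM, 2001 to 2434) overlapped cluster 7 but not cluster 3.

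**Figure D1:**
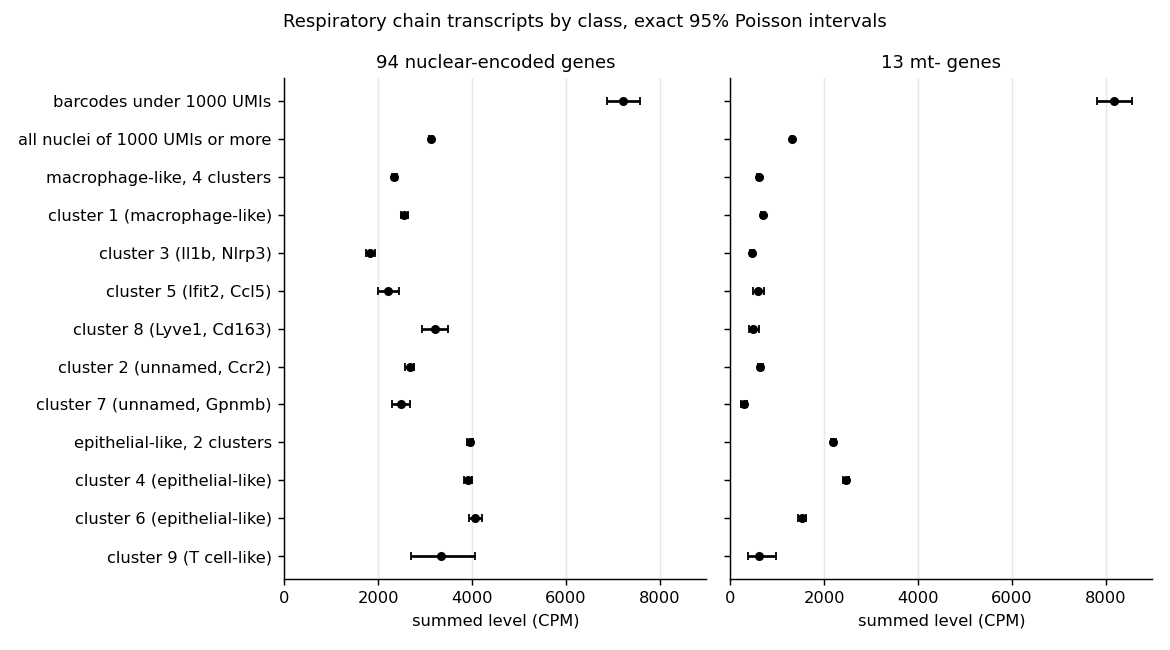
Summed level in CPM of the 94 nuclear-encoded genes (left) and the 13 mt- genes (right) in each class of barcodes, with points for the level and bars for its 95% Poisson interval. Nuclear-encoded genes stand at 7224 CPM in barcodes under 1000 UMIs and between 1835 and 4074 CPM in the clusters.

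Nuclei varied widely within each class. Per nucleus, cluster 1 had a median level of 2339 CPM (quartiles 1721 and 3287), cluster 3 one of 1807 CPM (1094 and 2456), cluster 8 one of 3145 CPM (2642 and 3751) and epithelial-like nuclei one of 3291 CPM (2203 and 5146). In low barcodes the median was 6658 CPM (quartiles 3407 and 10363). The middle 50% of cluster 3 and of cluster 8 did not overlap, whereas those of cluster 1 overlapped both. Thinned to 500 UMIs per barcode, 92.5% of 335 low barcodes held a member UMI (89.2 to 95.1), against 63.8% of macrophage-like (60.4 to 67.1) and 73.9% of epithelial-like nuclei (68.5 to 78.8), with 11 low barcodes left out as too shallow. Unthinned shares were 95.4%, 98.3% and 99.0% at median depths of 654, 2929 and 4794 UMIs. Each class was thinned in its own random draw, which the intervals do not cover. Clusters 1, 3 and 8, which hold all but 55 of the macrophage-like nuclei, gave 70.9%, 65.5% and 78.8%, all above the pooled 63.8%. The thinned gap between macrophage-like and epithelial-like nuclei is thus not resolved.

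The mt- genes had the same order of low barcodes, epithelial-like and macrophage-like nuclei. They took 8185 CPM in low barcodes, 2191 CPM in epithelial-like and 603 CPM in macrophage-like nuclei. Low barcodes stood 6.24-fold (5.94 to 6.56) above nuclei of 1000 UMIs or more, but 6 low barcodes with over 5% of UMIs from mt- genes carried most of this: with the 5% limit of the nuclei set on low barcodes too, the mt- ratio was 2.82 (2.62 to 3.02) and the members' ratio 2.30 (2.18 to 2.41). By suffix, the mt- ratio was 5.52 and 11.3 and the members' ratio 2.36 and 2.02. The members gave 3.89 UMIs per mt- UMI in macrophage-like nuclei (3.68 to 4.12), 1.81 in epithelial-like nuclei (1.75 to 1.86) and 0.883 in low barcodes (0.826 to 0.943). Without the 6 barcodes over 5% the low barcodes gave 1.94 (1.79 to 2.11), with an interval that overlapped that of epithelial-like nuclei. Cluster 8 reached 6.49 (5.13 to 8.31) and cluster 7 8.65 (6.76 to 11.2), since their mt- levels were 493 and 286 CPM while the members stood at 3204 and 2478 CPM. Of the mt- genes, mt-Co3 held 2596 UMIs, mt-Co1 2494 and mt-Co2 2203 (all complex IV subunits), mt-Atp6 1917, mt-Nd1 737, mt-Nd4 722, mt-Cytb 464, mt-Nd2 335, mt-Nd3 224, mt-Nd5 175, mt-Atp8 110, mt-Nd4l 68 and mt-Nd6 61.

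In barcodes under 1000 UMIs, members could be compared gene by gene where at least 5 UMIs were expected in the smaller class at equal levels, which 65 of the 94 met. Of these, 42 were 2-fold or more higher than in nuclei of 1000 UMIs or more and 0 were 2-fold or more lower, or 64.6% higher, where 6.91% of all 7410 genes measured were higher and 9.2% lower. The median ratio was 2.45 for the members and 0.885 for all genes measured, and 60 members lay above 1, against 39.2% of all genes measured. The measured mt- genes were higher by 2-fold or more in 10 of 10 cases and the cytosolic ribosomal protein genes in 82 of 83, at medians of 6.37 and 3.49. Ribosomal protein genes took 47089 CPM in low barcodes and 13641 CPM in nuclei, and Malat1, a nuclear-retained RNA, 26440 and 41588 CPM. The members' level thus moved with that of the ribosomal protein genes and opposite to Malat1, and the part of either in the members' ratio was not tested.

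The complexes differed. Complex IV subunits stood 2.82-fold higher in low barcodes (2.54 to 3.12), complex III 2.69-fold (2.28 to 3.16), complex V 2.51-fold (2.28 to 2.75), complex I 2.02-fold (1.84 to 2.22) and complex II 1.42-fold (1.08 to 1.83). Complex II thus had the lowest ratio, with an interval below those of the other complexes, and the complex I assembly factors were like it at 1.41 (1.03 to 1.89). Longer members also had low ratios, with a median of 1.16 for the 10 measured ones of 20 to 50 kb over all complexes. The part of gene length in the order of the complexes was not tested. Accordingly complex II made up 3.92% of subunit UMIs in low barcodes and 6.52% in nuclei of 1000 UMIs or more, and complex IV 26.0% and 21.7%. Counts 2-fold or more higher were 12 of 21 measured in complex I, 1 of 4 in complex II, 6 of 7 in complex III, 10 of 11 in complex IV and 12 of 17 in complex V.

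The 5 members with the highest ratios in low barcodes belonged to complexes III, IV and V. Atp5e stood at 140 CPM in low barcodes (33 UMIs) and 26.7 CPM in nuclei, a ratio of 5.25 (3.51 to 7.63). Cox5b, a complex IV subunit, stood at 102 and 19.7 CPM, a ratio of 5.19 (3.21 to 8.03). Atp5k stood at 127 and 25.7 CPM, a ratio of 4.96 (3.25 to 7.32). Uqcr11 and Uqcr10, small subunits of complex III, followed at 4.90 (3.33 to 7.03) and 4.27 (2.66 to 6.57). Intervals of these genes overlapped, so their order is not resolved at 24 to 35 UMIs each.

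At the other end, Sdhb stood at 25.5 CPM in low barcodes (6 UMIs) and 44.7 CPM in nuclei, a ratio of 0.571 (0.208 to 1.26). Ndufs4 stood at 93.5 and 127 CPM, a ratio of 0.734 (0.457 to 1.12). The next were Ndufaf6 at 0.897, Ndufa9 at 0.907 and Ndufv2, an iron-sulfur subunit of complex I, at 0.979, each with an interval that includes 1. Atp5e and Sdhb, whose upstream windows are printed above, stand at the ends of this order.

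**Figure D2:**
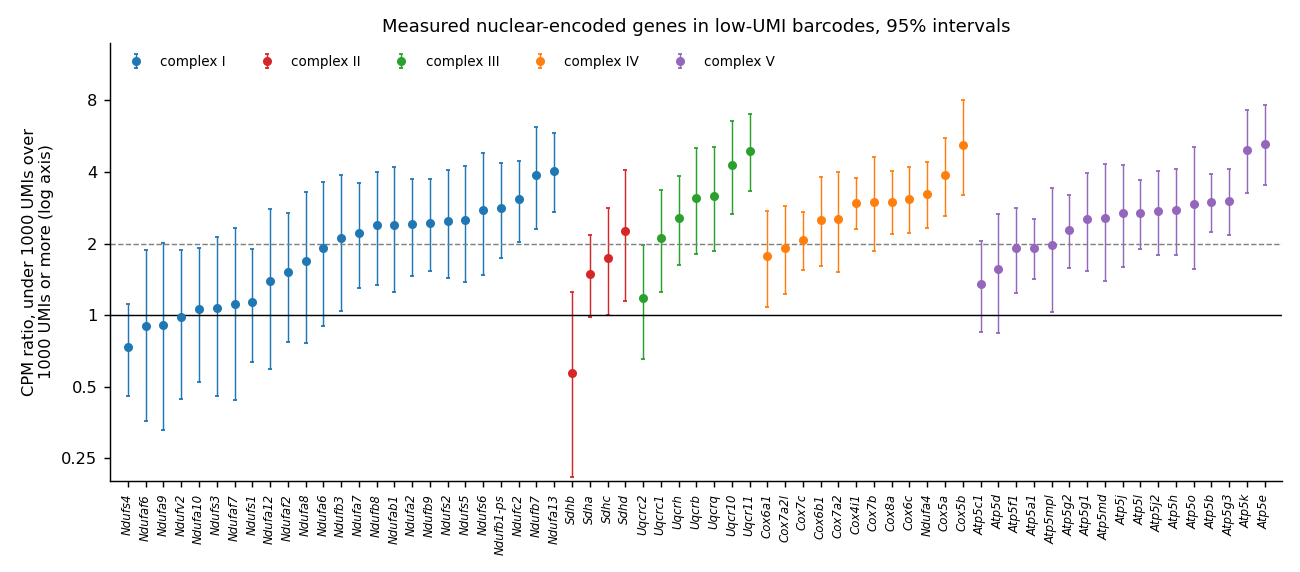
Ratio of CPM in barcodes under 1000 UMIs to CPM in nuclei of 1000 UMIs or more (log axis) for the 65 measured genes, ordered by complex, with 95% conditional binomial intervals and a dashed line at 2. Most genes of complexes III, IV and V lie above 2, and 42 of the 65 do in all.

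The members with most UMIs in each complex covered both ends. In complex I these were Ndufs4 (932 UMIs over all barcodes), Ndufs1 (414), an iron-sulfur core subunit, and Ndufc2 (329), with ratios of 0.734, 1.14 and 3.07. In complex II they were Sdha (600), the flavoprotein, Sdhb (324) and the membrane anchor Sdhc (313), at 1.49, 0.571 and 1.74. In complex III they were Uqcrc2 (401), Uqcrh (321) and Uqcrc1 (291), at 1.18, 2.56 and 2.11. In complex IV they were Cox7c (878), Cox4i1 (830) and Cox8a (545), at 2.07, 2.97 and 3.00. In complex V they were Atp5a1 (891) and Atp5b (639), the alpha and beta subunits of the catalytic head, and Atp5c1 (539), its central stalk, at 1.92, 2.98 and 1.35. UMIs here are not scaled to gene length, and Ndufs4 and Ndufs1 are long genes.

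Shorter members had higher ratios in low barcodes. Members spanned 0.953 to 156 kb on GRCm38 with a median of 7.33 kb, against 20.4 kb for all genes with a UMI. Across the 65 measured members, log2 length and log2 ratio had a Pearson correlation of -0.705 and a Spearman correlation of -0.689. Across all 7408 measured genes with a length these were -0.548 and -0.542. Genes share barcodes and are not independent replicates. Within length classes the members stood above the rest: under 5 kb, 16 members had a median ratio of 3.07 against 2.12 for all 396 genes, from 5 to 20 kb 37 members 2.51 against 1.27, and from 20 to 50 kb 10 members 1.16 against 0.923. The 2 measured members of 50 kb or more, Ndufs4 (100 kb) and Ndufaf2 (156 kb), had ratios of 0.734 and 1.51. Of ribosomal protein genes, 66 lay under 5 kb, with a median of 3.50.

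**Figure D3:**
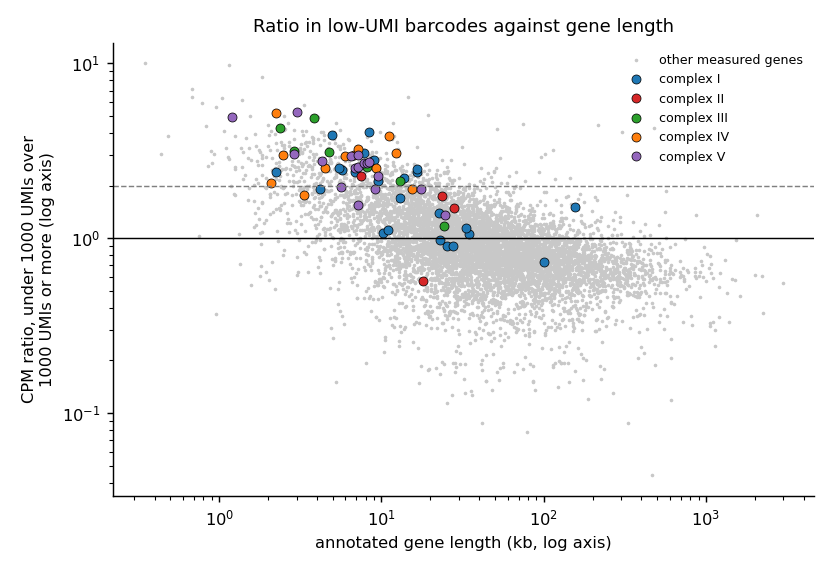
CPM ratio of barcodes under 1000 UMIs to nuclei of 1000 UMIs or more against annotated gene length in kb, both on log axes, for 7408 measured genes (grey) and the 65 measured members (colours by complex). Short members reach 5.25 and long ones lie near 1, and most members lie above the grey points of like length.

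The high level in low barcodes was seen on both sides of the marker split. A side took barcodes with at least 2 marker UMIs of its kind and more of them than of the other kind. Low barcodes with more macrophage than epithelial marker UMIs (189) stood at 7173 CPM of members (6720 to 7650), against 2498 CPM in 1166 barcodes of 1000 UMIs or more on the same side. Those with more epithelial marker UMIs (72) stood at 8338 CPM (7563 to 9171), against 3905 CPM in 272. The 85 low barcodes on neither side stood at 6311 CPM. Hence on either side the low barcodes lay above the deeper ones, with no overlap of intervals. The 101 low barcodes with no mt- UMI at all stood at 4866 CPM (4354 to 5423), and the 316 with 1% or less at 6939 CPM (6591 to 7300), both above nuclei of 1000 UMIs or more.

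Member UMIs were spread over the low barcodes: these held 1700 of 24047 member UMIs (7.07%) and 3.19% of all UMIs, with a median of 4 per barcode, 16 barcodes without any, and 25.4% of the 1700 in the 35 richest barcodes. At the limit, the 36 barcodes with 900 to 1000 UMIs stood at 5273 CPM (4531 to 6102) and the 27 with 1000 to 1100 at 3190 CPM (2568 to 3916). Above it, in bins from 1000 to 10000 UMIs, macrophage-like nuclei ranged from 2195 CPM (1981 to 2426) at 1500 to 2000 UMIs to 2581 CPM (2466 to 2701) at 5000 to 10000, whose intervals do not overlap. Epithelial-like nuclei spanned a wider range: they stood at 6532 CPM (5898 to 7215) at 1000 to 1500 UMIs, 5276 CPM at 2000 to 3000 and 2968 CPM (2814 to 3127) at 5000 to 10000, then 4393 CPM at 10000 to 20000 and 3945 CPM in the 45 deeper ones. Their ribosomal protein genes stood at 38788 CPM at 1000 to 1500 UMIs and at 14522 CPM at 5000 to 10000. Shallow epithelial-like nuclei thus lay near the low barcodes, and the gap between epithelial-like and macrophage-like nuclei was smaller at 5000 to 10000 UMIs than at 1000 to 1500 or 2000 to 3000.

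**Figure D4:**
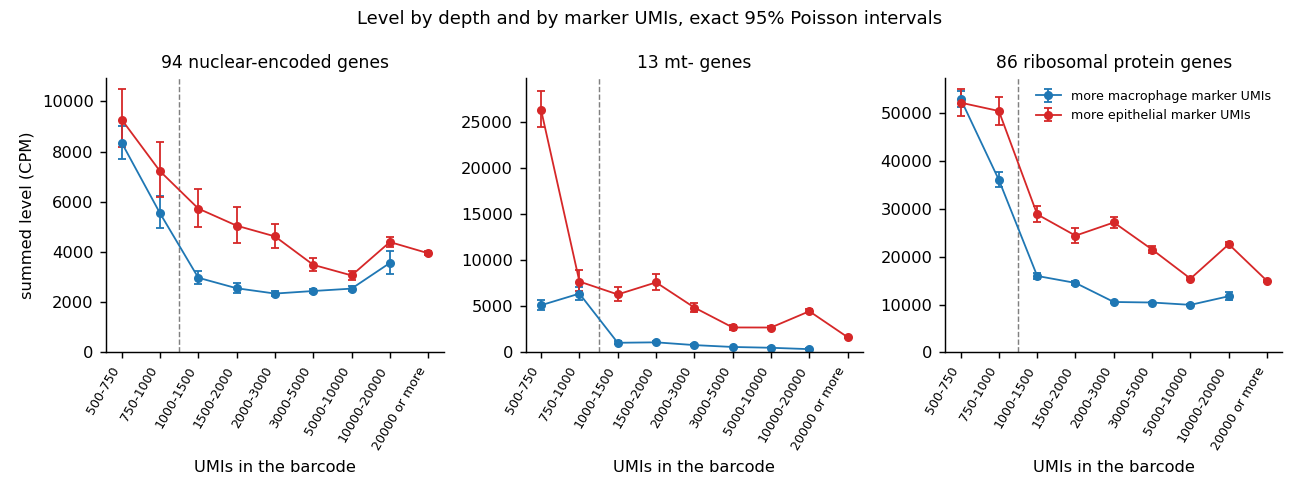
Summed CPM of the 94 nuclear-encoded genes, the 13 mt- genes and the 86 ribosomal protein genes by UMIs per barcode, split by whether a barcode held more macrophage (blue) or more epithelial (red) marker UMIs, with 95% Poisson intervals and a dashed line at 1000 UMIs. Pooled over bins, members stand at 7173 CPM below the line and 2498 CPM above it on the macrophage side, and at 8338 and 3905 CPM on the epithelial side. Barcodes with equal numbers, or fewer than 2 marker UMIs of the leading kind, are left out. Barcodes under 500 UMIs are not drawn but count in the pooled values.

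Between epithelial-like and macrophage-like nuclei, 86 members were measured and 82 stood higher in epithelial-like nuclei, as did 66.9% of all genes measured. The share past 2-fold was near the background: 31 members (36.0%) were 2-fold or more higher where 35.4% of all 13656 genes were, and 0 were 2-fold or more lower where 15.2% were. The members' median ratio of 1.81 was above the 1.43 of all genes measured. The ratio of the summed level was 1.70 (1.64 to 1.75) within suffix 1, from 266 epithelial-like and 751 macrophage-like nuclei. Within suffix 2 it was 1.69 (1.53 to 1.86), from 33 and 50 nuclei. Of these 50 macrophage-like nuclei 33 were of cluster 8, which suffix 1 lacks, so the macrophage states compared differ between the suffixes. Levels themselves differed between the suffixes: cluster 4 stood at 3775 CPM with suffix 1 (216 nuclei) and 5190 CPM with suffix 2 (33 nuclei). The mt- genes were 3.63-fold higher (3.44 to 3.84) and ribosomal protein genes 1.81-fold higher in epithelial-like nuclei.

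By complex, the ratio was 2.14 for complex IV (1.996 to 2.30), 1.77 for complex III (1.59 to 1.97), 1.70 for complex V (1.60 to 1.81), 1.63 for complex I (1.55 to 1.72) and 1.03 for complex II (0.911 to 1.16). Complex II thus took 8.87% of subunit UMIs in macrophage-like and 5.33% in epithelial-like nuclei. The 5 highest members were Ndufaf8, a complex I assembly factor, at 3.76 (1.99 to 7.72), Uqcr11 at 3.18 (2.23 to 4.62), and 3 complex I subunits, Ndufs6 at 3.14 (2.05 to 4.94), Ndufa6 at 3.08 (2.03 to 4.82) and Ndufc1 at 3.02 (1.92 to 4.91). Uqcr11 stood at 48.4 CPM in epithelial-like and 15.2 CPM in macrophage-like nuclei. Sdhb was the 1 member lower with an interval that leaves out 1, at 36.2 CPM against 55.6 CPM, a ratio of 0.652 (0.507 to 0.838). The other low members, Ndufaf5 (0.938), Ndufb1-ps (0.977), Ndufaf7 (0.983) and Ndufa9 (1.11), had intervals that include 1. Sdhb was thus lowest in this comparison and in low barcodes.

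**Figure D5:**
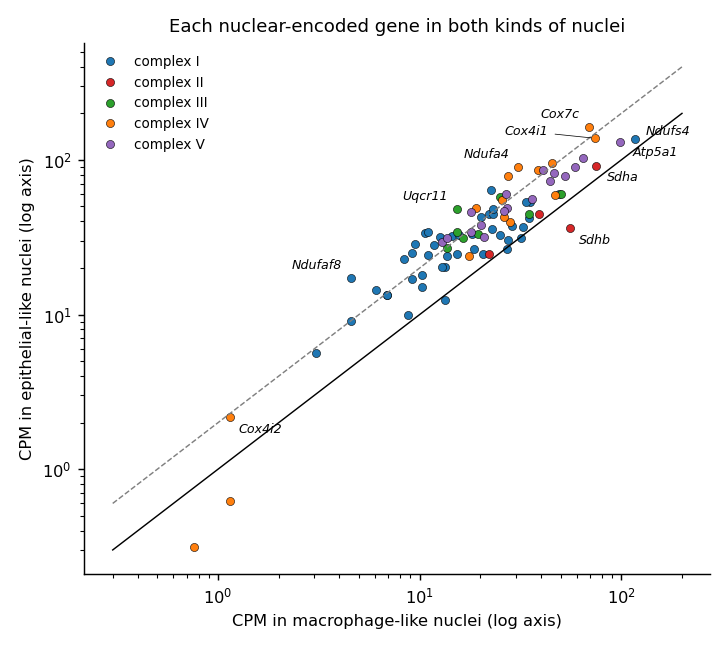
CPM of each of the 89 members detected in both kinds of nuclei, in macrophage-like (x) and epithelial-like nuclei (y), both on log axes, coloured by complex, with the line of equal level (solid) and of a ratio of 2 (dashed). Most points lie between the lines, and Sdhb lies below the line of equal level.

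Among macrophage states, the inflammatory-led cluster 3 had 0.711 of the members' level of the other macrophage-like nuclei (0.670 to 0.753). This too was close to what all genes did: the members' median ratio was 0.697 and that of all 9589 genes measured 0.755. Of 83 measured members, 17 (20.5%) were 2-fold or more lower and 1 higher, where 18.2% and 6.65% of all genes were. Complexes I, II and III stood at 0.651, 0.649 and 0.649, complex V at 0.773 (0.691 to 0.864) and complex IV at 0.842 (0.734 to 0.964). Ndufs4 stood at 0.517 (0.382 to 0.689), Uqcrc2, a core subunit of complex III, at 0.388 (0.228 to 0.628) and Sdhb at 0.427 (0.264 to 0.666), while Cox4i1 (0.972, 0.705 to 1.33), Cox8a (0.980, 0.646 to 1.46) and Atp5a1 (1.09, 0.834 to 1.42) had intervals that include 1. Ndufa12, a complex I subunit, was the 1 member 2-fold or more higher, at 2.02 (1.14 to 3.57), and is named for that after its value was seen. The mt- genes stood at 0.693 (0.616 to 0.778), so the members per mt- UMI were 3.97 in cluster 3 and 3.87 in the others. Of the nuclear RNAs, Neat1 stood 6.65-fold higher and Malat1 only 1.21-fold.

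Cluster 8, led by genes of resident macrophages, had 1.40-fold the members' level of other macrophage-like nuclei (1.28 to 1.53). All its nuclei carried suffix 2 and nearly all others suffix 1, so state and suffix cannot be told apart in this ratio. Within suffix 2 it was 1.20 (0.994 to 1.46) against the 17 other macrophage-like nuclei, and 1.20 (1.09 to 1.32) against the 275 nuclei of cluster 2 with that suffix. Of 26 measured members, 2 (7.69%) were 2-fold or more higher and 2 (7.69%) lower, where 10.8% and 20.3% of all genes were. The members' median ratio was 1.16, with 15 above 1 and 11 below, and that of all 5271 genes measured was 0.918. Atp5g3, which encodes the c-ring subunit of ATP synthase, stood at 91.4 CPM in cluster 8 (15 UMIs) and 37.4 CPM in the others, a ratio of 2.45 (1.32 to 4.25), and Ndufa4 at 67.0 and 28.4 CPM, a ratio of 2.36 (1.13 to 4.48). Atp5c1 (0.397) and Atp5j2 (0.323) were the lower ones, with 4 and 2 UMIs in cluster 8 and intervals that include 1. The mt- genes stood at 0.809 (0.639 to 1.01), below 1 where the members were above it, and at 0.751 (0.588 to 0.9498) against cluster 2 within suffix 2.

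The tissue-specific isoforms of complex IV were close to absent. Cox4i1 had 830 UMIs (139 per kb of gene) and Cox4i2, its lung isoform, 11 (1.01 per kb). Cox6a1 had 382 (114 per kb) and the muscle isoform Cox6a2 1, and Cox6b1 328 (35.3 per kb) and the testis isoform Cox6b2 4 (3.07 per kb). Cox7a2 had 259 (57.3 per kb), Cox7a2l 422 (27.4 per kb) and the muscle isoform Cox7a1 9 (4.65 per kb), of which 3 were in low barcodes. Cox8a had 545 (221 per kb), the muscle isoform Cox8b 1 and Cox8c 0, and Cox7b 256 and Cox7b2 0, where 0 UMIs, taken as up to 3, allow up to 0.421 CPM in nuclei of 1000 UMIs or more. Ndufa4 had 470 and Ndufa4l2, known as induced by hypoxia, 4. Thus 7 members held fewer than 10 UMIs, all of them complex IV isoforms. The 3 genes of the identical mature c subunit, Atp5g1, Atp5g2 and Atp5g3, were all detected, with 275, 514 and 495 UMIs (40.3, 54.2 and 172 per kb), and ratios of 2.53, 2.28 and 3.03 in low barcodes.

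Genes outside the symbol rule did not all move with the members. Cytochrome c1 (Cyc1), a core subunit of complex III that the symbol rule does not take in, and the mobile carrier cytochrome c (Cycs) together stood 2.92-fold higher in low barcodes (1.91 to 4.31), with 1 of 2 measured and that 1 higher. Of 37 other assembly factors 11 were measured and 1, Taco1, was 2-fold or more higher (2.16, 1.50 to 3.03), and their summed ratio was 1.18 (1.03 to 1.34). Of 12 regulators of mitochondrial genes 0 of 7 measured were, at 0.910 (0.767 to 1.07), and of 13 tricarboxylic acid cycle genes 0 of 9 were and 1, Dlst, was 2-fold or more lower, at 0.939 (0.797 to 1.10). The 6 carriers of the inner and outer membrane stood at 1.60 (1.33 to 1.90), led by the adenine nucleotide translocator Slc25a5 at 3.14 (2.15 to 4.46). Genes of these lists were not matched to the members by length, and the part of gene length in these ratios was not tested. Between epithelial-like and macrophage-like nuclei the regulators summed to a ratio of 0.847 but were mixed gene by gene: 7 of 12 lay above 1, at a median of 1.04, where all genes measured had a median of 1.43. Esrra stood at 49.7 CPM in epithelial-like and 79.9 CPM in macrophage-like nuclei, the coactivator Ppargc1b at 43.1 and 94.4 CPM and Nrf1 at 194 and 257 CPM. Higher in epithelial-like nuclei, with intervals that leave out 1, were Gabpb1 (1.43, 1.15 to 1.79), Tfb2m (1.55, 1.02 to 2.39) and the coactivator Ppargc1a. Ppargc1a had 25 UMIs there and 0 in macrophage-like nuclei. Its ratio was 6.84 with 3 counts put in for the 0, and its interval starts at 5.16.

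Of the members, 30 overlap a gene on the opposite strand, Cox4i1 (Emc8) and Atp5a1 (Haus1) among them, and 1, Ndufa13, a gene on the same strand, and whether counting used strand is not given in the sources used here. Many members also have processed pseudogenes elsewhere in the genome that can share their reads, so counts of single members are less certain than those of complexes.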

How the data were processed

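Per the submitters' processing notes, Cell Ranger 5.0 and genome mm10 were used. Per the file headers, the software was at 5.0.1. The deposited values are UMI counts per gene and barcode. Whether introns were counted and how barcodes were called is not given in the sources used here. The members and gene lists were chosen with earlier results of these data known, and high mt- and ribosomal protein shares in shallow barcodes were among those results. From nuclei of 1000 UMIs or more, 3 with over 5% mt- UMIs and 4 called by Scrublet (run per suffix, scanpy 1.11.5, 0 in suffix 1) were removed. Such a low yield leaves doublets of like nuclei. Counts were log-transformed, and Leiden clustering (igraph 0.11.9, resolution 0.5) used 15 neighbours over 30 principal components of 2000 variable genes. A marker counted for a cluster with 5 UMIs, 20 CPM and 0.5 of its highest cluster level, and 3 were needed for a name. A state list led a cluster with 1 gene among its 10 leading ones, a rule set after clusters were seen. Members were named for the 3 highest UMI counts per complex, the 5 highest and 5 lowest ratios in low barcodes and in epithelial-like nuclei, and the isoform groups. Fold counts used a ratio of 2 and at least 5 expected UMIs. A check on simulated counts covered only changes and expected UMIs above these limits, so calls near them were not checked. Fold counts carry no test, since the 2 samples were pooled without a map. Gene positions are from GENCODE on GRCm38, where all 94 members were found. Python 3.11.15, numpy 2.4.6, scipy 1.17.1 and pandas 2.3.3 were used, and matplotlib 3.10.9 for figures.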

Additional observations from a re-analysis of the deposited data

How the results depend on the processing

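Of 62 alternatives run for 6 summary values, 1 had no measured member. Alternatives for the count of members 2-fold or more higher could not change direction, since a count has none. Among the alternatives for ratios 0 changed direction, although 2 of these, both within suffix 2, had intervals that include 1. Of the 62, 37 stayed within the interval or range of the first value and 25 moved beyond it. The mean of per-nucleus shares gave 2.62 for members and 7.53 for mt- genes in low barcodes over nuclei, and 1.96 for epithelial-like over macrophage-like nuclei. A limit of 750 UMIs gave 2.57, 7.32 and 20 members 2-fold or more higher (of 34 measured, against 7.41% of all genes). A limit of 1500 gave 1.72, 3.91 and 30 members (of 81, against 3.63%). Suffix 1 alone gave 5.52 for mt- genes. Suffix 2 alone gave 2.02 for members, 11.3 for mt- genes, 0 members higher because 0 were measured, 1.20 (0.994 to 1.46) for cluster 8 and 0.646 (0.392 to 1.01) for cluster 3 (3 nuclei). Classes gated on marker UMIs per nucleus, which make ranges rather than types, gave 1.57 for epithelial over macrophage, 1.15 for resident and 0.820 for inflammatory nuclei. Leaving out nuclei over 20000 UMIs gave 2.56 and 6.87, and no mt- limit 5.77 for mt- genes. A minimum of 10 expected UMIs left 14 members higher (of 26 measured, against 5.8% of all genes), and a 3-fold limit 15 (of 65, against 1.96%). After seeing the data, counting clusters 2 and 7 as macrophage gave 1.62 for epithelial-like nuclei and, within suffix 2, 1.21 for cluster 8, and the mt- limit on low barcodes gave 2.82 for mt- genes. Apart from the counts of fewer genes measured, the cause of these shifts was not tested. No paired analysis was possible because the deposited table gives no sample for any barcode. Low barcodes held 235323 UMIs, so members expected at under 5 UMIs there, 29 of 94, were not compared singly.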
